A study of Homo sapiens with 12 samples.

Results

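The KDM2B peaks examined here lie at 9 genes of the Trithorax group and its partners, KMT2A, KMT2B, KMT2C, KMT2D, SETD1A, SETD1B, ASH1L, MEN1 and KDM6B, in 7 human leukaemia cell lines. The members were the peaks that overlapped a fixed hg19 window around each gene. They comprised 156 of the 79473 peaks of the 7 lists, and they merged into 37 of 29071 peak regions. KDM2B was profiled by chromatin immunoprecipitation and sequencing with a Millipore antibody, in lines grown in IMDM with 10% FBS. DND41, HPB-ALL, JURKAT and SIL-ALL come from T-cell acute lymphoblastic leukaemia (T-ALL), K562 from the blast phase of a chronic myeloid leukaemia, and REH and SUP-B15 from acute lymphoblastic leukaemia of B-cell precursors (B-ALL). These lineages are background knowledge of the named lines. Each line is an untreated established culture with 1 KDM2B library and 1 peak list, so a line had no replicate and a peak of 1 line cannot be told apart from a peak of 1 library. The labels list an input library for HPB-ALL, SIL-ALL, K562, REH and SUP-B15, while none for DND41 or JURKAT was analysed here.

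Trithorax proteins keep genes active and act in opposition to Polycomb repressors. KMT2A to KMT2D, SETD1A and SETD1B are the catalytic subunits of COMPASS complexes, which methylate lysine 4 of histone H3. KDM2B carries a CXXC zinc finger that binds unmethylated CG dinucleotides and brings a variant Polycomb complex to CpG islands, while KMT2A and KMT2B carry a CXXC finger of the same family. In acute leukaemias KMT2A is a frequent partner of gene fusions, whose products depend on menin, the protein made by MEN1.

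The promoter sequences show how often this DNA motif occurs next to annotated gene starts, and not over the rest of the genes or windows. RefSeq promoters of the GRCh38 build (250 bases before to 50 bases after each annotated start, 5′ to 3′ on the gene's strand) were found for 8 of the 9 genes, and SETD1B had no entry. Of them 6 are printed below, because their genes differed widely in KDM2B peaks. Capitals mark the CG dinucleotide, which reads the same on both strands. These coordinates are those of GRCh38 and were not placed on the hg19 peaks. The stretches are chr11:118436242-118436541 (plus strand) for KMT2A, chr19:35717753-35718052 (plus) for KMT2B, chr7:152435954-152436253 (minus) for KMT2C, chr16:30957504-30957803 (plus) for SETD1A, and chr17:7833967-7834266 and chr17:7839667-7839966 (plus) for the first and second start of KDM6B.
KMT2A: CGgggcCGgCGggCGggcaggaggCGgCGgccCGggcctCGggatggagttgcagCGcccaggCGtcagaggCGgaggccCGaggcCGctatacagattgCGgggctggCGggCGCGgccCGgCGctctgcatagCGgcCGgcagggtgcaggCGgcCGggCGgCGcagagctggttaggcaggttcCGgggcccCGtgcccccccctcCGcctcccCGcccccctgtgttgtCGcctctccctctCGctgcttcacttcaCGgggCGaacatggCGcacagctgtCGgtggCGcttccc
KMT2B: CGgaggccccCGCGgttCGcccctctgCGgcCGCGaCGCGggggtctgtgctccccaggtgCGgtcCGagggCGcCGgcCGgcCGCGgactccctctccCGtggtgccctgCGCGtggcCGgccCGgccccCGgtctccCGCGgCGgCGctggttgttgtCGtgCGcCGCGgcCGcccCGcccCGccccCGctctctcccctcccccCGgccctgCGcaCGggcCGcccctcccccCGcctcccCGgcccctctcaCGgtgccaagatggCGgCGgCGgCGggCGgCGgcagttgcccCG
KMT2C: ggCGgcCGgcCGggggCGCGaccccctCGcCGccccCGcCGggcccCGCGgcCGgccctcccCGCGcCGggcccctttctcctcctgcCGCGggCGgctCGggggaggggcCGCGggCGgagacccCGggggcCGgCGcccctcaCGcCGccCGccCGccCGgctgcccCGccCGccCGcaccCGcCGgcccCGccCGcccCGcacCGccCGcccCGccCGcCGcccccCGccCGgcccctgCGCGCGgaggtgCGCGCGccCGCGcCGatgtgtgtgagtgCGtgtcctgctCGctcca
SETD1A: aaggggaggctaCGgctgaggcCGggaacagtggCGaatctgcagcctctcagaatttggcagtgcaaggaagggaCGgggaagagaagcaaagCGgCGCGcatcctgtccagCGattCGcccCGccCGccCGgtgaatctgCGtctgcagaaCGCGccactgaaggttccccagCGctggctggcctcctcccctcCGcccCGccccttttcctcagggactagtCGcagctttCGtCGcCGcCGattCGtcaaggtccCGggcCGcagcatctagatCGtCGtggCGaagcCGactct
KDM6B, first start: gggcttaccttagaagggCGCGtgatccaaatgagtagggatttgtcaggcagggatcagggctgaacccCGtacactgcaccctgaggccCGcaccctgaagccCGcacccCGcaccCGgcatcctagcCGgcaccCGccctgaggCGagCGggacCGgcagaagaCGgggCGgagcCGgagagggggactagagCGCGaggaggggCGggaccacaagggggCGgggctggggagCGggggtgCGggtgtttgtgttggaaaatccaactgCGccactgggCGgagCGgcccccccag
KDM6B, second start: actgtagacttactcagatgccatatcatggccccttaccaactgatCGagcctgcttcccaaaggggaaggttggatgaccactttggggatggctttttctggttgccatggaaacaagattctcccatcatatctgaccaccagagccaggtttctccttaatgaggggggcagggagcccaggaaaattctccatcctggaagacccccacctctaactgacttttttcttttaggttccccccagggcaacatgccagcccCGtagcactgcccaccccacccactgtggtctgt

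The KMT2C promoter held 56 CG dinucleotides, and 0.276% of the 35116 promoters of the table held as many or more. KMT2B held 48 (1.98% of promoters with as many or more), KMT2A 36 (12.7%), SETD1A and ASH1L 30 each (22.4%) and KMT2D 27 (28.2%). The first KDM6B promoter held 24 (33.9%) and the second 2 (89.0%), and the overlapping MEN1 promoters held 20 (41.2%) and 25 (32.0%). The median of all promoters was 14, and 96.0% of them held at least 1. A match of this motif describes the letters of the window and says nothing of the methylation or occupancy of the site.

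By number, most KDM2B peaks lay at SETD1B (44), KDM6B (40), KMT2A (31) and KMT2B (23). KMT2D had 8, ASH1L and MEN1 4 each, and KMT2C and SETD1A 1 each. These numbers also reflect window length. In the 18 kb MEN1 window K562, REH and SUP-B15 had 1 peak each, or 55.6 per Mb, against 20, 10 and 20 per Mb at KMT2A. T-ALL lines had 0 to 55.6 per Mb at MEN1 and 40 to 80 at KMT2A. The 4 windows with the most peaks held 138 of the 156 (88.5%) in 22.9% of the length of all windows. A high share follows from picking them by these same numbers, and KMT2C and ASH1L alone span 311 and 237 kb. Each of the 9 windows held a peak in at least 1 line, against 17.3% of all 40 kb bins of hg19. The windows of KMT2A and SETD1B held a peak in all 7 lines, 2 of 9 windows, against 1.17% of 40 kb bins and 3.38% of 100 kb bins. The windows were 18 to 311 kb long and lie in genes, whereas the bins also cover gene-free sequence, so the bins describe the genome and are not matched to the windows.

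**Figure D1:**
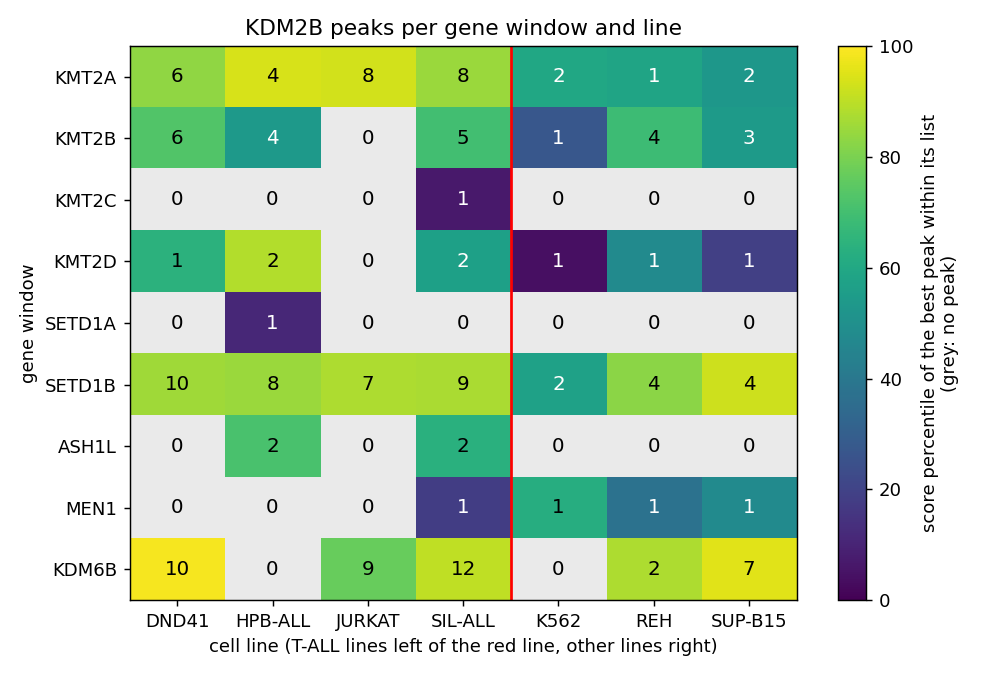
Number of KDM2B peaks in each gene window (rows) and cell line (columns), with colour for the score percentile of the best peak within its own list and grey for no peak. SETD1B and KMT2A held peaks in all 7 lines, while KMT2C and SETD1A held 1 peak each, in SIL-ALL and in HPB-ALL.

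Across the lines, DND41 had 33 member peaks, HPB-ALL 21, JURKAT 24 and SIL-ALL 40, whereas K562 had 7, REH 13 and SUP-B15 18. They lay in 5, 6, 3 and 8 windows of DND41, HPB-ALL, JURKAT and SIL-ALL, and in 5, 6 and 6 windows of K562, REH and SUP-B15. Of all 40 kb bins, the DND41 list reached 8.73%, HPB-ALL 8.60%, JURKAT 9.60% and SIL-ALL 9.44%, whereas K562 reached 5.14%, REH 6.08% and SUP-B15 5.50%. JURKAT had peaks in the fewest windows, although its list of 14839 peaks was longer than 4 of the others. As a share of the list, member peaks made up 0.221% of DND41 (Wilson 95% interval 0.157 to 0.310%), 0.165% of HPB-ALL (0.108 to 0.251%), 0.162% of JURKAT (0.109 to 0.241%) and 0.261% of SIL-ALL (0.192 to 0.356%). They made up 0.118% of K562 (0.0571 to 0.243%), 0.160% of REH (0.0933 to 0.273%) and 0.239% of SUP-B15 (0.151 to 0.377%). These intervals overlap between all 7 lines and cover counting error only, and the sequencing depth behind the lists is unknown.

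Peaks were denser in the windows than over the genome in every line. In the windows DND41 had 39.2 peaks per Mb, HPB-ALL 24.9, JURKAT 28.5 and SIL-ALL 47.5, whereas K562 had 8.31, REH 15.4 and SUP-B15 21.4. The whole genome held 4.12 to 4.94 peaks per Mb in T-ALL lines and 1.92 to 2.63 in the others. The ratio of the 2 densities ranged from 4.33 in K562 to 9.61 in SIL-ALL. Gene-rich DNA was not used as a comparison, and no test was made of this excess.

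**Figure D2:**
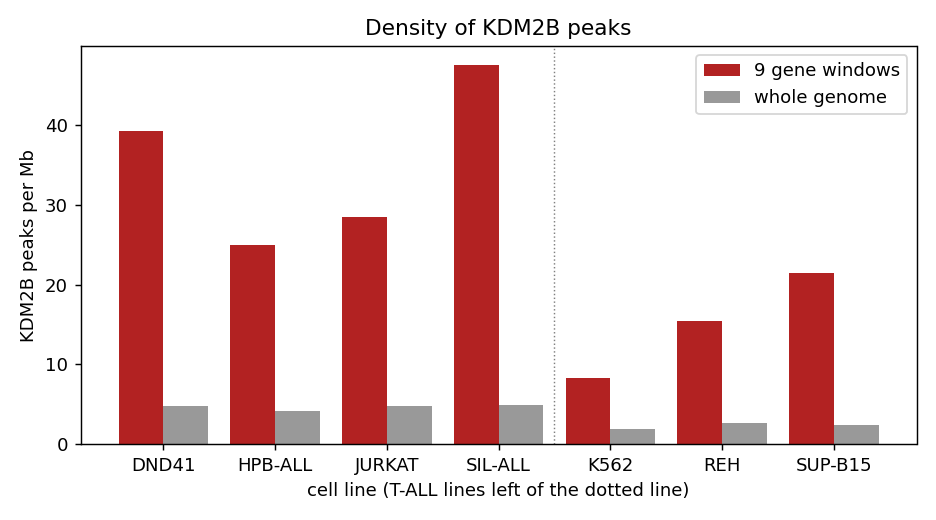
KDM2B peaks per Mb (vertical axis) in the 9 gene windows (red) and in the whole genome (grey) of each cell line, with T-ALL lines on the left. In every line the windows stand above the genome, from 8.31 against 1.92 in K562 to 47.5 against 4.94 in SIL-ALL.

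SETD1B is a SET1-type methyltransferase that sets much of the promoter H3 lysine 4 methylation together with SETD1A. It held more peaks than any other window and the only member region with a peak in all 7 lines. In its window (chr12:122238000-122275000) DND41 had 10 peaks, HPB-ALL 8, JURKAT 7 and SIL-ALL 9, whereas K562 had 2, REH 4 and SUP-B15 4. All T-ALL lines stood above all other lines, as in 7.55% of the 40 kb bins with a peak in any line. Of 44 peaks, 36 lay within 10 kb of the window's edge on the side of the gene start, hereafter the gene-start end.

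The region with a peak in all 7 lines spanned chr12:122240826-122243550, 2.82 to 5.55 kb from the gene-start edge. It is a chain of overlapping peaks, in which the peaks of K562 and JURKAT did not overlap each other. No base was therefore covered by a peak in all 7 lines. Among the 37 member regions, this region of SETD1B was the only 1 called in all 7 lines, against 2.44% of all merged regions. Such regions were thus about as frequent among the members as over the genome. The best DND41 peak in it stood at score percentile 75.5, that of HPB-ALL at 84.9, that of JURKAT at 87.7 and that of SIL-ALL at 87.3. The best peak of K562 stood at 57.3, that of REH at 82.7 and that of SUP-B15 at 87.8. The score is the authors' deposited value per peak, whose unit is not stated, and a percentile is the rank of a peak within its own list. In every line the best peak of the region thus ranked above the middle of its list, and lowest in K562. DND41, SIL-ALL and K562 also had peaks below the middle there, at percentiles of 8.5, 11.9 and 34.2, and the remaining lines had none.

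A second region of SETD1B at the gene-start edge (chr12:122237763-122239173) had a peak in 6 lines and lacked one in K562. A further region (chr12:122249238-122250199, 11.24 to 12.20 kb into the window) had a peak in all 4 T-ALL lines and in REH, with best percentiles of 85.9 (DND41), 82.9 (HPB-ALL), 26.1 (JURKAT) and 68.3 (SIL-ALL) against 56.4 (REH). It had none in K562 and SUP-B15. The remaining 2 regions had 1 line each. In the RefSeq table SETD1B is 42.5 kb long on GRCh38, longer than its 37 kb window, so the window cannot hold the whole gene. Upstream of the window, on the side of the neighbouring gene RHOF, every line but K562 had further peaks within 15 kb, namely 5 (DND41), 6 (HPB-ALL), 2 (JURKAT) and 4 (SIL-ALL), against 4 (REH) and 2 (SUP-B15).

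SETD1A, the close relative of SETD1B, showed the opposite picture in a window of the same length (37 kb, chr16:30964000-31001000). It held a single peak, in HPB-ALL, of 151 bp at chr16:30969397-30969547 with a score of 85.69 (percentile 11.2). The peak lay 5.40 kb from the gene-start edge, and the other 6 lists had none in the window. The neighbourhood was not empty, since in the flanks of 1 Mb on each side DND41 had 67 peaks, HPB-ALL 52, JURKAT 32 and SIL-ALL 62, whereas K562 had 7, REH 34 and SUP-B15 21. Outside the window, on the side of the neighbouring gene ORAI3, HPB-ALL had 4 more peaks within 15 kb and SIL-ALL 2. The strongest, in HPB-ALL, was 855 bp wide with a score of 434.02 (percentile 91.0) and ended 2.27 kb before the window.

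**Figure D3:**
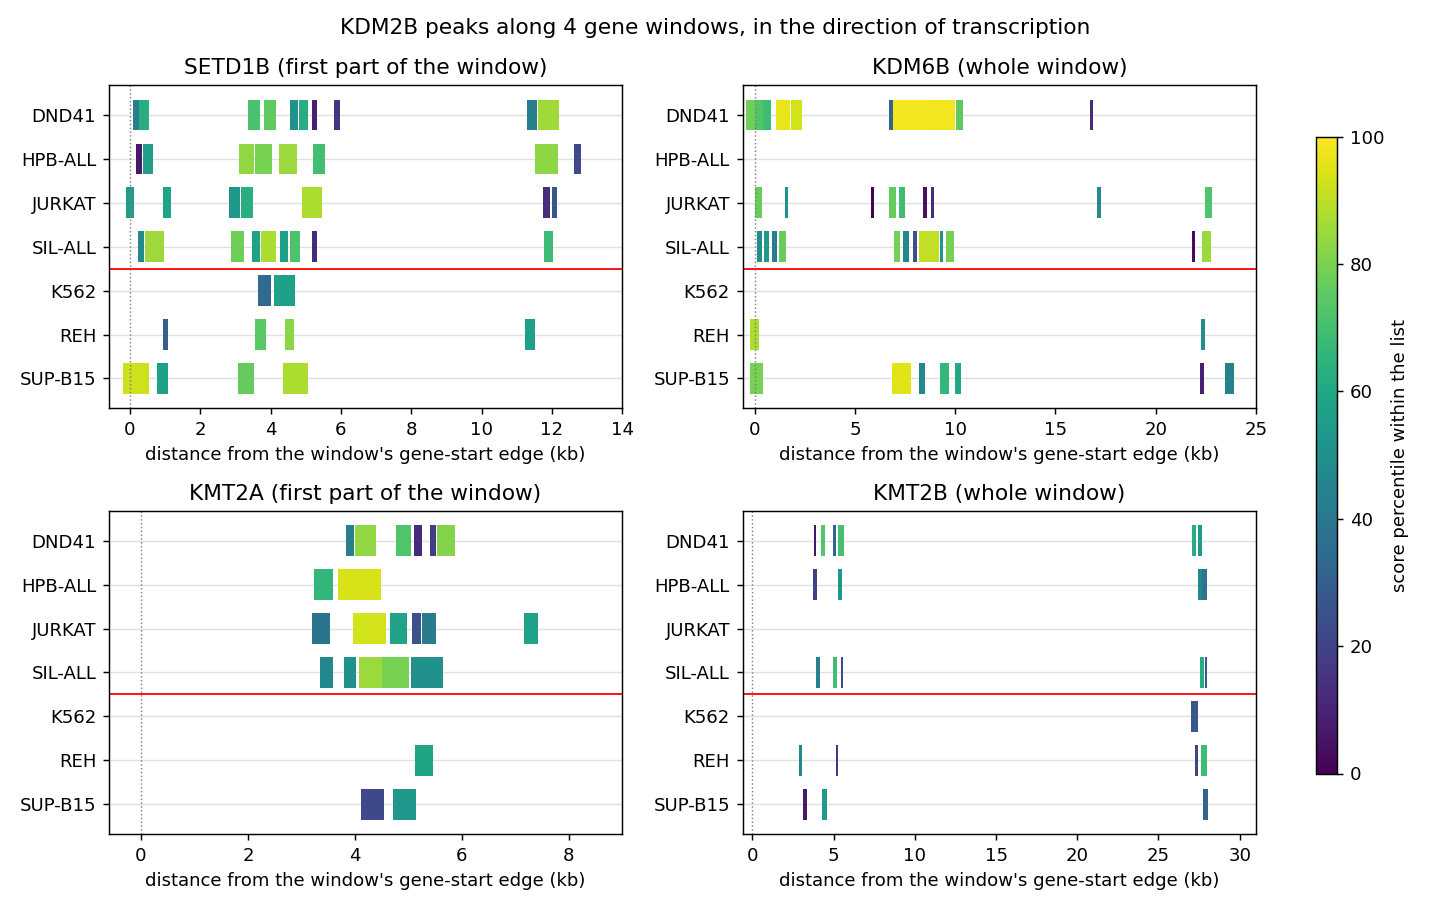
KDM2B peaks along the first part of the SETD1B and KMT2A windows and the whole KDM6B and KMT2B windows in kb from the gene-start edge, with 1 row per line (T-ALL lines above the red line) and colour for the score percentile within the list. Peaks of different lines fall into the same short stretches, and HPB-ALL and K562 have no peak at KDM6B.

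KDM6B, which removes the repressive H3 lysine 27 methylation set by Polycomb and is often grouped with Trithorax-type activators, held the highest-ranked peaks and the largest contrast between lines. In its window (chr17:7738000-7763000) DND41 had 10 peaks, HPB-ALL none, JURKAT 9 and SIL-ALL 12, whereas K562 had none, REH 2 and SUP-B15 7. The T-ALL and other lines overlapped, because either side had a line with no peak. This window is 4.4 kb longer than the gene in the GRCh38 table, so the first start may lie outside it, and the kb distances given for KDM6B count from the window edge. The covered length was 6219 bp in DND41, 2264 bp in JURKAT and 3902 bp in SIL-ALL, against 668 bp in REH and 3242 bp in SUP-B15.

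The strongest region spanned chr17:7744686-7748373, 6.68 to 10.37 kb from the gene-start edge, and had a peak in DND41, JURKAT, SIL-ALL and SUP-B15. DND41 had a single peak of 1988 bp there with a score of 884.06, at percentile 98.7, and a neighbour of 1073 bp with a score of 739.64 (percentile 98.2). The best peak of SIL-ALL was 1008 bp wide (score 492.44, percentile 90.3), that of SUP-B15 920 bp (286.56, percentile 95.6) and that of JURKAT 357 bp (127.82, percentile 76.5). By their best peaks, DND41 and SUP-B15 thus ranked this site among the top of their lists, and JURKAT did not. The region at the gene-start edge itself (chr17:7737385-7738419) had a peak in the same 4 lines and in REH, where it was the best of the gene (percentile 87.5). The 3 regions that followed, between 0.44 and 2.38 kb, had peaks of DND41, JURKAT and SIL-ALL and of no other line, and 1 of the 3 was shared by all of these.

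In the last 4 kb of the window, towards the next gene TMEM88, JURKAT, SIL-ALL, REH and SUP-B15 had peaks, with best percentiles of 72.5, 84.9, 48.8 and 44.8. In the flanks of 1 Mb on each side of the KDM6B window DND41 had 71 peaks, HPB-ALL 26, JURKAT 55 and SIL-ALL 72, whereas K562 had 6, REH 40 and SUP-B15 24. These are raw counts from lists of different length. Whether they relate to the lack of peaks at the gene in HPB-ALL and K562 was not tested.

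KMT2A, also known as MLL, held peaks at its gene-start end in 6 of 7 lines. In its window (chr11:118302000-118402000) DND41 had 6 peaks, HPB-ALL 4, JURKAT 8 and SIL-ALL 8, whereas K562 had 2, REH 1 and SUP-B15 2. All T-ALL lines again stood above the others. The main region (chr11:118305681-118307873, 2193 bp, 3.68 to 5.87 kb from the gene-start edge) had a peak in every line except K562. Its best percentile was 83.5 (DND41), 93.9 (HPB-ALL), 93.2 (JURKAT) and 85.0 (SIL-ALL), against 58.5 (REH) and 53.0 (SUP-B15). Each value is the best of a line's peaks in the region, and the number of these peaks differed between lines. A rank within lists of different length also does not compare the strength of a site. HPB-ALL had the widest peak of the window, 810 bp with a score of 547.80.

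K562 had both of its KMT2A peaks at the opposite end of the window, in a region of 1232 bp (chr11:118401020-118402251) about 99 kb from the gene-start edge, next to the neighbouring gene TTC36. HPB-ALL, JURKAT and SIL-ALL had peaks in the same region, with best percentiles of 83.6, 82.8 and 71.7 against 59.5 in K562. Between 7.42 and 99.02 kb from the gene-start edge no list had a peak. Counted at the gene-start end alone, 1 of 9 windows, that of SETD1B, had a peak in all 7 lines. Stretches of 10 kb were not counted over the genome, where 1.17% of 40 kb bins had a peak in all 7 lines.

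KMT2B, the nearest relative of KMT2A, held weaker peaks at both ends of its window (chr19:36204000-36235000). DND41 had 6 peaks there, HPB-ALL 4, JURKAT none and SIL-ALL 5, whereas K562 had 1, REH 4 and SUP-B15 3. At the gene-start end, DND41, HPB-ALL, SIL-ALL, REH and SUP-B15 had 13 peaks in all between 2.85 and 5.62 kb, with best percentiles from 46.2 in REH to 72.9 in DND41. The region with a peak in the most lines lay at the other end (chr19:36230995-36232035), towards the gene IGFLR1. It had a peak in every line except JURKAT, at percentiles from 27.1 in K562 to 68.5 in REH. The median percentile of KMT2B peaks was 43.1, beside 58.1 for KMT2A, 60.3 for SETD1B and 67.8 for KDM6B. JURKAT, without a peak here, had 34 peaks in the flanks of 1 Mb, where DND41 had 36, HPB-ALL 25 and SIL-ALL 43, so its neighbourhood was not short of peaks.

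KMT2C and KMT2D, the methyltransferases of enhancers, had few peaks. The KMT2C window was the longest (311 kb, chr7:151827000-152138000) and held 1 peak, in SIL-ALL, of 135 bp at chr7:152133928-152134062 with a score of 83.88 (percentile 7.0), 3.94 kb from the gene-start edge. The flanks held 11 to 20 peaks in T-ALL lines and 13 to 15 in the others. This was the gene with the most CG dinucleotides in its promoter. Parts of KMT2C have near-identical copies elsewhere in the genome, and the sources used here do not say how reads with several matches were treated. Whether this bears on the number of peaks was not tested.

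In the window of KMT2D (chr12:49408000-49454000) DND41 had 1 peak, HPB-ALL 2, JURKAT none and SIL-ALL 2, whereas K562, REH and SUP-B15 had 1 each. Of these 8 peaks, 4 lay at the gene-start edge (DND41, HPB-ALL, SIL-ALL and REH) and 4 at the other end, towards PRKAG1 (HPB-ALL, SIL-ALL, K562 and SUP-B15). The strongest was the HPB-ALL peak at that other end (chr12:49411897-49412689 is the merged region), 592 bp wide with a score of 380.83 and percentile 88.6, whereas K562 had percentile 4.0 and SUP-B15 18.9 in the same region. The window is 46 kb long and the gene 41.8 kb in the GRCh38 table, so the gene start may lie at or beyond the edge. JURKAT had 2 peaks 0.28 and 0.55 kb before that edge. With windows extended by 5 kb, KMT2D joined SETD1B and KMT2A as a window with a peak in all 7 lines.

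ASH1L, which methylates H3 lysine 36, and MEN1, whose product menin ties KMT2A and KMT2B to chromatin, had 4 peaks each. Those of ASH1L (237 kb, chr1:155300000-155537000) came from HPB-ALL and SIL-ALL, 2 each, in 2 neighbouring regions (chr1:155532108-155532326 and chr1:155532423-155532701) 4.30 to 4.89 kb from the gene-start edge. The best stood at percentile 71.1 in HPB-ALL and 63.3 in SIL-ALL. The other 5 lists had none in the window, although in the flanks of 1 Mb DND41 had 62 peaks and JURKAT 57, whereas K562 had 15, REH 38 and SUP-B15 39.

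MEN1 (18 kb, chr11:64566000-64584000) was the only window with more lines on the side without T-ALL. It held 1 peak in SIL-ALL and none in DND41, HPB-ALL and JURKAT, against 1 in each of K562, REH and SUP-B15. These 4 peaks lay in 4 separate regions, so no base was shared by 2 lines. The K562 peak was the widest (599 bp, chr11:64577260-64577858, percentile 62.3), and the others were 120 to 280 bp wide at percentiles of 18.0 to 47.8. The flanks of MEN1 were the richest of the 9 genes, with 84 to 111 peaks in T-ALL lines and 31 to 65 in the others.

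**Figure D4:**
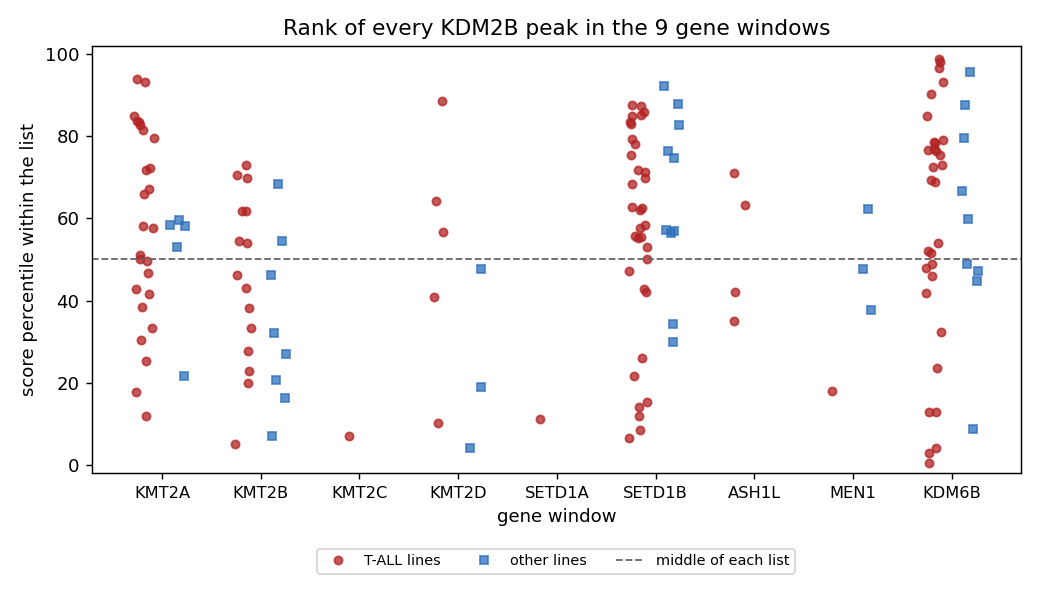
Score percentile within its own list (vertical axis) of each of the 156 peaks, by gene window, with T-ALL lines as red circles and the other lines as blue squares. KDM6B reaches percentile 98.7 and KMT2A 93.9, while the peaks of KMT2C and SETD1A stand at 7.0 and 11.2.

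Most peaks lay at the gene-start ends of the windows. In all, 113 of 156 peaks (72.4%) overlapped these ends, which make up 10.7% of the window length. That share of length also reflects the long windows of KMT2C (311 kb) and ASH1L (237 kb), which held 1 and 4 peaks. Of the 9 windows, 6 are 9.1 to 10.2 kb longer than their genes in the GRCh38 table, and there 42 of 64 peaks (65.6%) overlapped ends that make up 8.17% of the length. The windows of KMT2D and KDM6B are longer than the genes by 4.2 and 4.4 kb only and that of SETD1B is shorter. For these 3 genes, with 71 of the 113 peaks, the ends held 77.2% of the peaks in 27.8% of the length. Their first annotated start may lie outside the window, and distances refer to the window edge. No hg19 annotation was used here, and exon, intron or UTR positions were therefore not determined. Peaks also came in runs: of 117 pairs of neighbouring peaks of the same line in a window, 71 were at most 500 bp apart. Member peaks of DND41 had a median width of 295 bp against 213 bp for its whole list, those of HPB-ALL 297 against 253 bp, those of JURKAT 259 against 240 bp, and those of SIL-ALL 238 against 223 bp. Member peaks of K562 had 558 against 552 bp, those of REH 233 against 213 bp, and those of SUP-B15 392 against 350 bp. In the 7 lines, 9 member peaks stood at or above percentile 90 of their list, of which 6 lay at KDM6B, 2 at KMT2A and 1 at SETD1B.

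**Figure D5:**
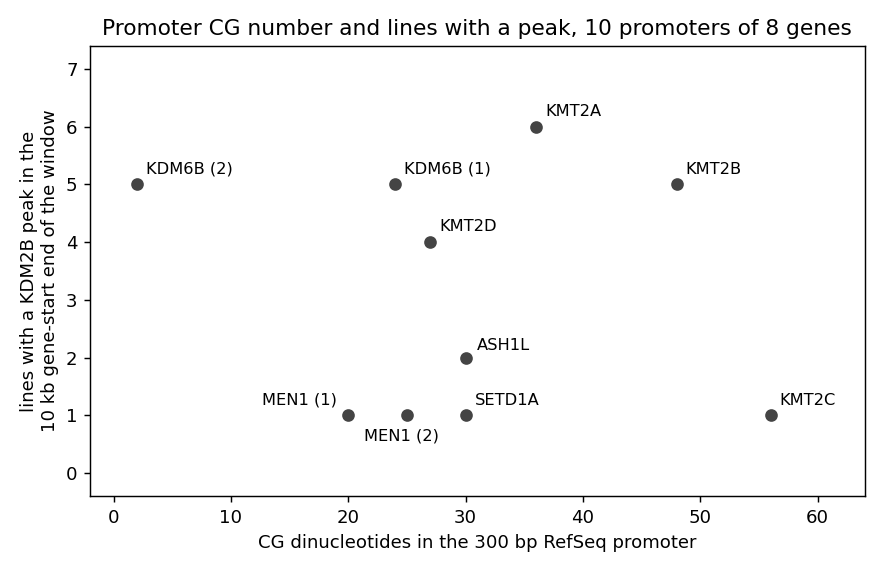
Number of CG dinucleotides in each RefSeq promoter of 300 bp (horizontal axis) and number of the 7 lines with a KDM2B peak in the 10 kb gene-start end of that gene's window (vertical axis), for 10 promoters of 8 genes, with 2 starts for MEN1 and KDM6B. KMT2C has the most CG and a peak in 1 line, while KMT2A has fewer CG and a peak in 6 lines.

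The number of CG dinucleotides in the promoter did not order the genes by peaks. KMT2A (36), KMT2B (48) and KMT2D (27) had a peak at the gene-start end in 6, 5 and 4 lines. SETD1A and ASH1L (30 each) had one in 1 and 2 lines, and KMT2C (56) in 1 line. KDM6B had one in 5 lines, with 24 CG in its first promoter and 2 in its second. MEN1, with 20 and 25 CG in its promoters, had one in 1 line. SETD1B, with one in all 7 lines, had no promoter entry and is missing here. These are 8 genes read from another build, given as a description with no test.

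The lineage comparison asked whether member sites separate the 4 T-ALL lines from the 3 other lines. No member region had a peak in all T-ALL lines and in none of the others, against 2.25% of all merged regions, and none had the reverse pattern, against 0.193%. With peaks scored as present or absent, an exact two-sided permutation test over all 35 ways to split the lines goes below 0.05 for such patterns alone, at p = 0.0286, so it adds nothing to these counts. It called 0 of the 37 member regions without adjustment, against 2.45% of all 29071 regions, and at that share Benjamini-Hochberg adjustment can pass no region (0%). Regions with peaks in T-ALL lines only numbered 18 of 37, against 56.1% of all regions, whose T-ALL lists are longer. Of the 37, 18 had a peak in 1 line alone, against 58.2% of all regions, and 19 in 2 or more lines, against 41.8%.

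By number of peaks, the T-ALL lines all stood above the other lines in 2 of 9 windows, SETD1B and KMT2A (bins, 7.55%), and in none did all stand below (bins, 0.484%). SETD1B averaged 8.50 ± 1.29 peaks in T-ALL lines (SD, n = 4) and 3.33 ± 1.15 in the others (SD, n = 3), with an exact two-sided permutation p of 0.0286, the smallest this design allows, and an adjusted value of 0.526 over all bins and windows. KMT2A averaged 6.50 ± 1.91 peaks among the 4 T-ALL lines, against 1.67 ± 0.577 among the 3 others (SD; exact permutation p = 0.0571, adjusted 0.64). KDM6B averaged 7.75 ± 5.32 peaks in the T-ALL group and 3 ± 3.61 in the rest (exact permutation p = 0.257). Unadjusted, 5.44% of bins and windows had p under 0.05, and after adjustment 0% did, since at that share the smallest possible p cannot pass. The T-ALL lists are longer, and the difference at SETD1B depended on how the lists were made comparable. With equal lists it shrank to 4.5 peaks in T-ALL lines against 3.33 in the others (exact permutation p = 0.429). Counting peaks within 500 bp of each other as 1 gave 3.50 in T-ALL lines against 2.67 in the others (p = 0.571 in the exact permutation test). The groups overlapped under both settings, at KMT2A too. With the upper 50% of each list by score, SETD1B averaged 6 peaks in T-ALL lines against 2.67 in the others (exact permutation p = 0.0286). With a common score floor it averaged 7.5 against 2.33 (exact permutation p = 0.0571). The groups did not overlap under these 2 settings, at KMT2A neither. The share of bins with this pattern was computed for the full lists only, not for these settings. The common floor also cut the lists unequally. It left the member peaks of HPB-ALL (21) and SIL-ALL (40) unchanged and reduced those of REH from 13 to 4.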

How the data were processed

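KDM2B ChIP-seq peak lists of 7 leukaemia lines were analysed; the 5 input libraries listed in the labels, none of them of DND41 or JURKAT, were not used here. The tools named per the submitters' processing notes are FastQC 0.10.1 and Bowtie 1.1.1, with hg19 as genome build. The peaks are named after MACS per the files; no source used here gives its version, control or threshold. The authors deposited 1 list per library, not pooled, with a score per peak and no stated unit; the lowest score was 50.0 to 80.03, so the lists had no common cut-off. Scores served only to rank peaks within a list and to filter for the alternatives. The depth of the libraries is unknown.

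The 9 windows, their genes and all lists were chosen with earlier results of these data known. A peak belonged to a window with at least 1 bp of overlap. Peaks of the 7 lists formed 1 merged region where they overlapped, directly or through a chain of overlapping peaks. Lines with a peak in the same region thus need not share a base. T-ALL and other lines were compared per merged region, and, added after the data were seen, by number of peaks per window and 40 kb bin, with exact permutation over 35 splits and Benjamini-Hochberg adjustment over all of them. As each line is 1 library, p-values reflect the spread of lines and of libraries alike. For each gene the text gives the region with the highest mean percentile, regions of all lines or of 1 side, and the remaining ones by count or singly. The direction of each gene is that of the RefSeq promoter table; for SETD1B, which has no entry, it is background knowledge. Neighbouring genes are those next in the GRCh38 gene table, by name alone, and which gene a peak belongs to was not determined. Genes of the pathway beyond the 9 were not analysed here, since their hg19 windows need an annotation that was not used here.

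Alternatives were lists of equal length, the upper 50% of each list by score, a common score floor, other window edges (15 kb added after the data were seen), peak midpoints, 50% reciprocal overlap, a joining distance of 500 bp, T-ALL against B-ALL lines, a gene-start end of 6 kb, and each line left out. Python 3.11.15, numpy 2.4.6, pandas 2.3.3, scipy 1.17.1 and matplotlib 3.10.9 were used.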

Additional observations from a re-analysis of the deposited data

Results flagged for a closer look

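Over the 7 lines and over the 4 T-ALL lines, 28 sets of values were examined for a line far from the rest, and chance gives about 1 in 20. Both that were found concern MEN1 and the same peak: SIL-ALL had 1 peak of 120 bp in this window and DND41, HPB-ALL and JURKAT had none, so any value above 0 would stand apart there.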

How the results depend on the processing

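Windows with a peak in all lines numbered 2, and 1 with a common score floor of 80.03, where REH and SUP-B15 lost their KMT2A peaks, and 0 with windows shortened by 5 kb, where K562 lost its SETD1B peaks near the gene-start edge and its KMT2A peaks at the opposite edge, and HPB-ALL its KMT2A peaks at both; with 1 line left out they numbered 2 to 4, with 4 without JURKAT. Regions called in all lines numbered 1, and 0 when 50% reciprocal overlap with a K562 peak was required; with 1 line left out they numbered 1 to 4, with 4 without K562 and 2 without JURKAT. Regions that separate the T-ALL from the other lines numbered 0, and 1 with a common floor (exact permutation p = 0.0286, adjusted 0.807); with 1 line left out there were 0 to 2 (2 without DND41, HPB-ALL or JURKAT, 1 without REH or SUP-B15), and the smallest exact p those designs allow is 0.0667 or 0.1.

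With equal lists of 5942 peaks, DND41 had 20 member peaks, HPB-ALL 13, JURKAT 8 and SIL-ALL 16, whereas K562 had 7, REH 11 and SUP-B15 15. With a common floor DND41 had 25, HPB-ALL 21, JURKAT 14 and SIL-ALL 40, whereas K562 had 4, REH 4 and SUP-B15 8. With peaks within 500 bp counted as 1 DND41 had 11, HPB-ALL 12, JURKAT 15 and SIL-ALL 16, whereas K562 had 5, REH 12 and SUP-B15 14. The T-ALL and other lines, which did not overlap in the full lists, overlapped with equal lists and with joined peaks. The full lists themselves did not overlap in length, with 12765 to 15304 peaks in T-ALL lines and 5942 to 8146 in the others. A gene-start end of 6 kb held 60.3% of member peaks in place of 72.4%. The difference in SETD1B peaks, T-ALL minus other, was 5.17 with all peaks, 1.17 with equal lists, 0.833 with joined peaks, 3.33 with the upper 50% by score and 5.17 with a common floor. With 1 line left out it was 4.5 to 5.67 and the groups did not overlap, a pattern not counted over all bins. Those designs cannot reach 0.05. The KMT2A difference was 4.83, and 1.33, 1, 2.67 and 4.33 under the same 4 settings, with an exact permutation p of 0.0286 under the last 2; with 1 line left out it was 4.33 to 5.67. Of the other 60 alternative values, which are counts or a share, 35 lay within 1.5 times the main value and 25 were treated as moved, the share at 6 kb among them. No difference changed its sign. No paired analysis was possible because no line has more than a single KDM2B list. The unknown depth means that a missing peak was not detectable in that list, not that the site is free of KDM2B.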
